A study of Mus musculus with 4 samples.

Results

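Photoreceptor precursors are the newly postmitotic retinal cells that will become rods and cones, and a small network of transcription factors directs their fate. OTX2 commits a cell to the photoreceptor lineage and turns on Crx and Prdm1. CRX drives the genes of the outer segment, and PRDM1, also called Blimp1, holds back the bipolar fate. NEUROD1 promotes photoreceptor differentiation. NRL and its target NR2E3 install the rod programme and repress cone genes, while the thyroid hormone receptor THRB and its partner RXRG act in cones. Recoverin, encoded by Rcvrn, is a calcium sensor of maturing photoreceptors. YTHDF2 is a cytoplasmic protein that reads N6-methyladenosine (m6A), a methyl mark on RNA found in a sequence context of which GGACT is a common form, and it speeds the decay of the transcripts it binds.

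The members were the genes whose symbol in the count table equalled one of 10 names, namely Otx2, Crx, Nrl, Nr2e3, Prdm1, Thrb, Rxrg, Rcvrn, Neurod1 and Blimp1. Of these, 9 were found among 52550 genes, since Blimp1 is an older name of Prdm1 and is not used as a symbol there. Retinas of wild type C57BL/6 mice at postnatal day 0 were dissociated with papain, and RNA was sequenced before (input) and after RNA immunoprecipitation (RIP) with an antibody to YTHDF2. Each of 2 replicates gave an input and a RIP library, 4 libraries in all, and no allele or agent differed between the groups. A pulldown with control IgG, which the study's methods name, was not analysed here, so every difference below is between RIP and input. RNA of all retinal cells was mixed in each library. For a low level in the inputs, few precursors and little RNA per precursor therefore cannot be told apart.

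The libraries held from 19530226 to 39499994 counts. AY036118 and genes annotated as ribosomal RNA took 55.0% to 55.5% of the input counts and 85.4% to 87.9% of the RIP counts, which left 2083594 to 4175459 counts on protein-coding genes. The inputs differed from each other more than the RIP libraries did. Over 5017 tested genes with a mean of at least 5 CPM (counts scaled to a common library total), the median size of the log2 ratio between the replicates was 0.58 for the inputs and 0.18 for the RIP libraries. Among 13632 tested genes, 474 were higher and 1333 lower in the RIP at an adjusted p below 0.05 by edgeR's quasi-likelihood test, so that 26.2% of the calls were higher. That share was 45.8% with scaling by library size alone, which moved the overall median of the log2 fold change from -0.05 to 0.27, and 46.8% with trends on transcript length and GC content taken out. The transcript of Ythdf2, whose protein the antibody binds, had 124 and 317 counts in the inputs against 212 and 171 in the RIP libraries. Its RIP values lay between its inputs, and its log2 fold change was 0.26 ± 0.47 (SE, n = 2 per group, adjusted p = 0.755).

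GGACT was found in 8 of the 9 members. The match nearest the stop codon is shown for the members whose results are described first, with 10 bases on either side, in mRNA sense, from the longest protein-coding transcript (GENCODE M21, GRCm38). Capitals mark GGACT.
Crx: tggaccctctGGACTacaaagatca
Prdm1: aattaaagaaGGACTccaatgttac
Otx2: ttgggggcatGGACTgtggatctta
Neurod1: ccagtcccctGGACTgcccagcccg
Nrl: ccgaatctttGGACTctccatttta
Thrb: aagtatttgaGGACTaaatttactg

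The Crx window (chr7:15867808-15867832, minus strand) lies at the end of the coding region in exon 4 of 4, and the first base of its motif stands 42 nt before the last base of the stop codon. The Prdm1 window (chr10:44439503-44439527, minus strand) is in the 3′ UTR, 150 nt past the stop codon. In Otx2 (chr14:48658965-48658989, minus strand), Neurod1 (chr2:79454351-79454375, minus strand) and Thrb (chr14:18033650-18033674, plus strand) the nearest match is coding, and in Nrl (chr14:55520064-55520088, minus strand) it is in the 3′ UTR. In Thrb the first base of the motif is 6 nt before the last base of the stop codon. Others lie further from that base, at -273 nt in Otx2, -401 nt in Neurod1 and 477 nt in Nrl. The nearest match is at -366 nt in Rcvrn and -1621 nt in Rxrg. These are matches of letters in the annotation. No methylation was measured in these libraries.

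The members differed in how many matches they hold and where. Crx had 6 in 2919 nt, of which 1 was coding and 5 were in the 3′ UTR. Prdm1 had 7 in 5281 nt, with 5 in the coding region, 1 in the 5′ UTR and 1 in the 3′ UTR. Otx2 had 3 in 2592 nt and none of them in its 3′ UTR of 1029 nt. Neurod1 had 3, all coding, Rcvrn had 2, both coding, and Rxrg had 1, in the 5′ UTR. Nr2e3 had none in its coding transcript of 2037 nt and none in its longest annotated transcript of 2686 nt, in which an intron is kept. Over the longest transcripts of 11953 tested protein-coding genes, the median was 4 matches in 3589 nt and 93.9% held at least 1, so that having a match does not set the members apart. Per kilobase, Crx stood at 2.06 matches, Rcvrn at 1.92 and Prdm1 at 1.33, against a median of 1.03. Otx2 at 1.16 and Neurod1 at 1.10 were near that median. Nrl at 0.80, Thrb at 0.48, Rxrg at 0.47 and Nr2e3 at 0 were below it.

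**Figure D1:**
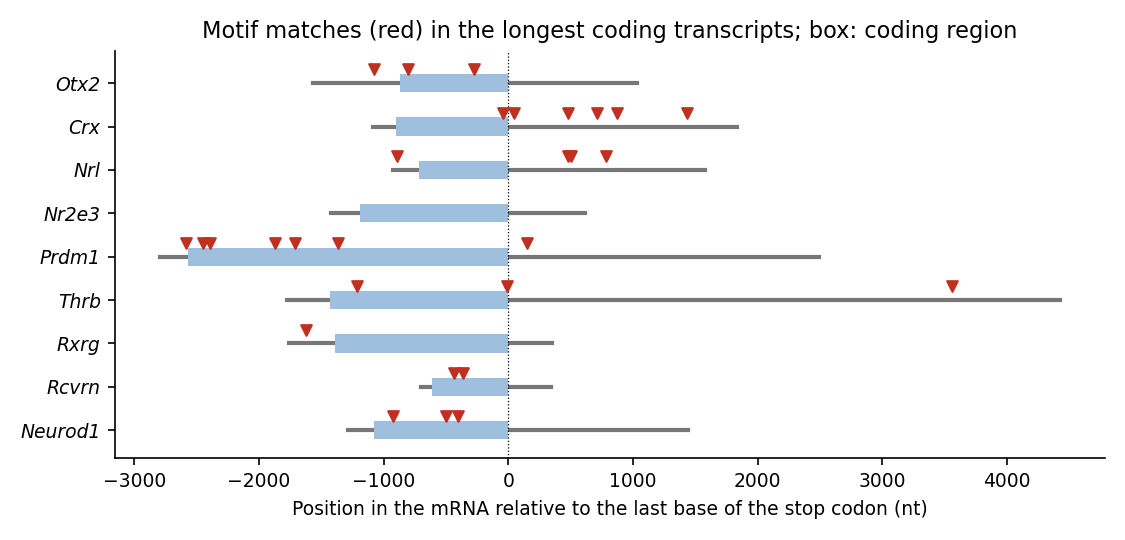
Positions of the m6A-type motif in the longest protein-coding transcript of each member, in nt from the last base of the stop codon (dotted line). Boxes are coding regions, thin lines are UTRs and red triangles are matches. Crx carries 5 of its 6 matches in the 3′ UTR, and Nr2e3 carries none.

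In the newborn retina the highest levels were those of Neurod1, Otx2 and Crx, and the lowest those of the cone factors and recoverin. Neurod1 had the highest mean level per length in the inputs, at 7.38 and 18.9 FPKM (fragments scaled for transcript length and mapped total). Its inputs lay on both sides of those of Otx2, at 9.53 and 8.88 FPKM, so the order of Neurod1 and Otx2 was not resolved. Crx followed at 8.33 and 8.72 FPKM, below Otx2 in both inputs. The mean levels of these 3 members exceeded those of 97.7% to 98.4% of protein-coding genes.

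The rod factors Nrl and Nr2e3 came next, together with Prdm1. Nrl had 4.73 and 3.41 FPKM and lay below Crx in both inputs. Prdm1 had 2.10 and 3.28 FPKM and Nr2e3 had 2.74 and 2.43 FPKM. Prdm1 and Nr2e3 overlapped and were not apart. The cone factors were lower still, with Rxrg at 0.724 and 0.727 FPKM and Thrb at 0.177 and 0.318 FPKM. Rcvrn came last at 0.343 and 0.0810 FPKM, overlapping with Thrb. In all, 5 of the neighbouring pairs in this order were apart in both inputs. With counts per kilobase of the longest annotated transcript, Nrl fell from place 4 to place 6 in the order, since its longest transcript of 4973 nt keeps an intron.

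None of the 8 members that could be tested passed the adjusted threshold in either direction by edgeR, and none passed a log2 fold change of 1 or -1 with an unadjusted p below 0.05 (the fold limits). At an unadjusted p below 0.05 there were 2, Crx and Prdm1, both higher in the RIP. DESeq2 and limma on log2(FPKM + 0.1) also gave 2 at an unadjusted p below 0.05 and 0 after adjustment. When edgeR's fit paired the libraries by replicate number, 0 members had an unadjusted p below 0.05. Among all tested genes, 3.48% were called higher and 9.78% lower at the adjusted threshold, and 9.43% were higher and 17.2% lower within the fold limits. Both RIP libraries lay above both inputs for 2 of the 8 members, Crx and Prdm1, and below both for 2, Otx2 and Nr2e3. Among all tested genes such a separation was found for 29.6% upward and 31.3% downward, so these counts are near the background. An exact two-sided permutation test on a lone gene cannot reach below p = 0.333 with this design of 2 and 2 libraries.

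**Figure D2:**
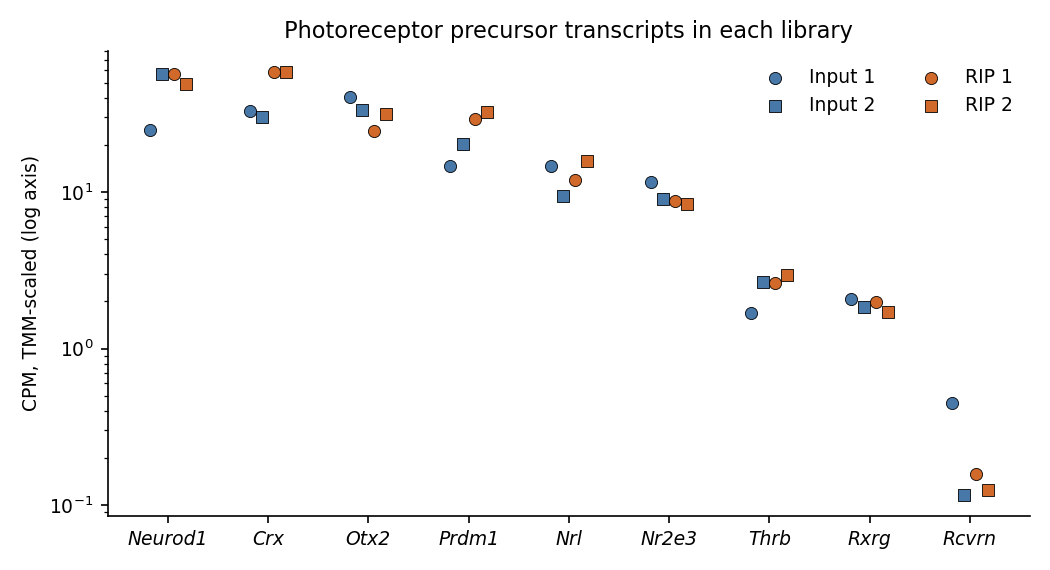
CPM of each member in the 4 libraries (log axis), with inputs in blue, RIP libraries in orange, replicate 1 as circles and replicate 2 as squares. The RIP values of Crx, at 58.4 and 58.7 CPM, sit above its inputs, and the inputs of Neurod1 lie far apart, at 25.1 and 56.7 CPM.

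Crx (ENSMUSG00000041578, chr7:15865947-15879968, minus strand) had the highest fold change of the members. It had 1094 and 1044 counts in the inputs against 1474 and 1412 in the RIP libraries, although the RIP libraries held fewer counts in total. This gave 32.8 and 30.4 CPM in the inputs against 58.4 and 58.7 CPM in the RIP. Both RIP values lay above both inputs, and the libraries of each group lay close together. The log2 fold change was 0.89 ± 0.33 (SE, n = 2 per group), a 1.85-fold higher level. By edgeR's test p was 0.0243 before and 0.109 after adjustment. The ratio of RIP to input was 0.83 on the log2 scale in replicate 1 and 0.95 in replicate 2. Of the tested protein-coding genes, 83.8% had a lower fold change.

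The log2 fold change of Crx stayed above 0 when any single library was dropped. Dropping input replicate 1 gave 0.94 and dropping input replicate 2 gave 0.84. Dropping RIP replicate 1 gave 0.98 and dropping RIP replicate 2 gave 0.97. Tests from such fits are not given for any member. Their spread comes only from the group that keeps 2 libraries, and the inputs were further apart than the RIP libraries. Longer transcripts were higher in the RIP over the whole table, with a median log2 fold change of -0.79 in the shortest of 4 equal groups of tested protein-coding genes by length and 0.49 in the longest. Crx lies in group 2, counted from the shortest, whose median was -0.04, and stood 0.93 above it. With trends on length and GC content taken out, its log2 fold change was 1.05 and its adjusted p 0.0217 by edgeR's test. Pairing the libraries by replicate number without this step gave 0.89 (adjusted p = 0.243 by the same test). Of 11 other settings with all 4 libraries, 2 put Crx past the adjusted threshold, both with these trends taken out.

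Prdm1 (ENSMUSG00000038151, chr10:44437177-44528501, minus strand) had the second highest fold change. Its counts were 489 and 693 in the inputs against 740 and 783 in the RIP, or 14.7 and 20.2 CPM against 29.3 and 32.6 CPM. The groups did not overlap, and the inputs were further apart than the RIP libraries. The log2 fold change was 0.83 ± 0.34 (SE, n = 2 per group). By edgeR's test p was 0.041 before and 0.15 after adjustment. The log2 fold change fell to 0.62 when input replicate 1 was dropped and rose to 1.08 when input replicate 2 was dropped. Dropping RIP replicate 1 gave 0.97 and dropping RIP replicate 2 gave 0.82. Its transcript is in the longest of the 4 length groups, and with the length and GC trends taken out the value was 0.49 (adjusted p = 0.172).

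Otx2 (ENSMUSG00000021848, chr14:48657677-48673819, minus strand), which acts upstream of both, had the lowest fold change of the members. It had 1346 and 1142 counts in the inputs against 621 and 756 in the RIP libraries. In CPM these were 40.4 and 33.3 against 24.6 and 31.4. The RIP values lay below the inputs, with RIP replicate 2 close to input replicate 2. The log2 fold change was -0.39 ± 0.34 (SE, n = 2 per group, adjusted p = 0.478), and it stayed below 0 in all 11 other settings and with each library left out, from -0.53 to -0.06. With the length and GC trends taken out it was -0.06. Otx2 is also expressed in the pigment epithelium, most of whose markers were near 0. Of 12 such markers, 6 had no count in any library, among them Tyr, Tyrp1, Pmel and Rpe65. The summed level of the 12 was 3.70 to 4.98 CPM in the inputs and 4.53 to 4.92 CPM in the RIP. Most of it came from Rlbp1, at a mean of 3.67 CPM in the inputs and 4.05 CPM in the RIP. The part of the pigment epithelium in the values of Otx2 was not tested.

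Ratios of counts within a library do not depend on how libraries are scaled. The ratio of Crx to Otx2 was 0.813 and 0.914 in the inputs against 2.37 and 1.87 in the RIP libraries, so that Otx2 had more counts than Crx in both inputs and fewer in both RIP libraries. Prdm1 to Otx2 was 0.363 and 0.607 in the inputs against 1.19 and 1.04 in the RIP. Within the rod pair, Nrl to Nr2e3 was 1.28 and 1.04 in the inputs against 1.36 and 1.88 in the RIP, so that both RIP ratios lay above both inputs here too, with RIP replicate 1 close to input replicate 1. Neurod1 to Otx2 overlapped, at 0.622 and 1.70 in the inputs against 2.33 and 1.57 in the RIP. These pairs were picked after the values were seen and are given as a description.

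**Figure D3:**
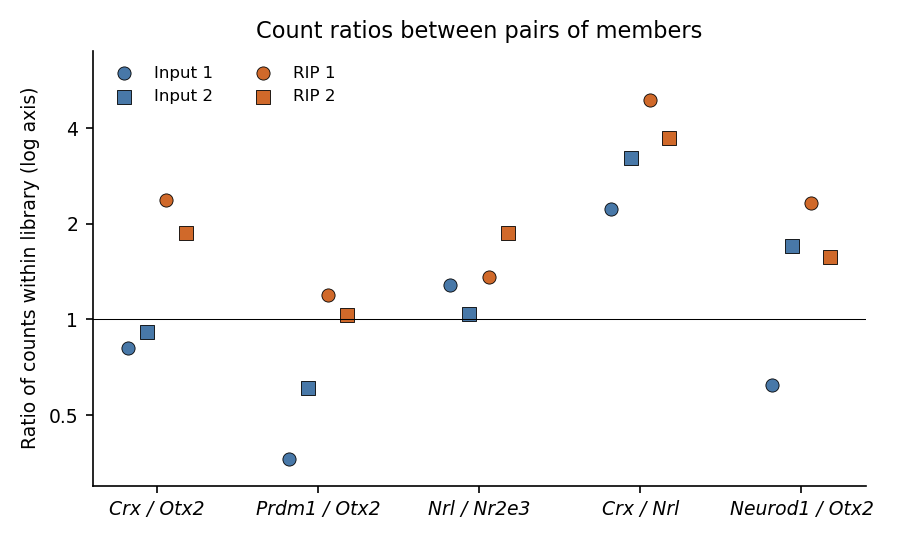
Ratio of the counts of pairs of members within each library (log axis), with inputs in blue and RIP libraries in orange. Crx to Otx2 lies below 1 in both inputs, at 0.813 and 0.914, and above 1 in both RIP libraries, at 2.37 and 1.87.

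Neurod1 (ENSMUSG00000034701, chr2:79452521-79456751, minus strand) had inputs far apart and no resolved difference. It had 837 and 1947 counts in the inputs against 1445 and 1188 in the RIP, or 25.1 and 56.7 CPM against 57.3 and 49.4 CPM. The RIP values were close to input replicate 2 and far above input replicate 1. The log2 fold change was 0.38 ± 0.43 (SE, n = 2 per group, adjusted p = 0.6). Dropping input replicate 1 turned this value to -0.09 and dropping input replicate 2 raised it to 1.09, so its direction turned on which input was used. Between the inputs its log2 ratio was 1.18.

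The rod regulators showed small differences. Nrl (ENSMUSG00000040632, chr14:55518978-55524981, minus strand) had 493 and 324 counts in the inputs against 301 and 379 in the RIP, or 14.8 and 9.44 CPM against 11.9 and 15.8 CPM. Its groups overlapped, its log2 fold change was 0.19 ± 0.37 (SE, n = 2 per group, adjusted p = 0.774), and it turned to -0.22 with the length and GC trends taken out. Nr2e3 (ENSMUSG00000032292, chr9:59942771-59960659, minus strand), the orphan nuclear receptor that works with NRL, had 385 and 312 counts in the inputs against 221 and 202 in the RIP. These were 11.5 and 9.09 CPM against 8.76 and 8.40 CPM. The RIP values lay just below the inputs, with a log2 fold change of -0.27 ± 0.34 (SE, n = 2 per group, adjusted p = 0.648) that became 0.08 with scaling by library size alone.

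The cone regulators were measured at low counts. Thrb (ENSMUSG00000021779, chr14:17660261-18038090, plus strand) had 56 and 91 counts in the inputs against 66 and 71 in the RIP, or 1.68 and 2.65 CPM against 2.62 and 2.95 CPM. Its groups overlapped and its log2 fold change was 0.36 ± 0.43 (SE, n = 2 per group, adjusted p = 0.621). Rxrg (ENSMUSG00000015843, chr1:167598384-167639623, plus strand) had 69 and 63 counts in the inputs against 50 and 41 in the RIP, or 2.07 and 1.84 CPM against 1.98 and 1.70 CPM. Its groups overlapped too, with a log2 fold change of -0.08 ± 0.43 (SE, n = 2 per group, adjusted p = 0.918) whose sign changed with scaling by library size alone (0.27).

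Rcvrn (ENSMUSG00000020907, chr11:67695326-67703333, plus strand) did not pass the filter on low counts and was not tested. It had 15 and 4 counts in the inputs against 4 and 3 in the RIP. Summed over libraries and scaled, the ratio of RIP to input was 0.506 with an exact 95% Poisson interval from 0.180 to 1.26, which covers counting error only. A difference was not detectable at this depth.

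**Figure D4:**
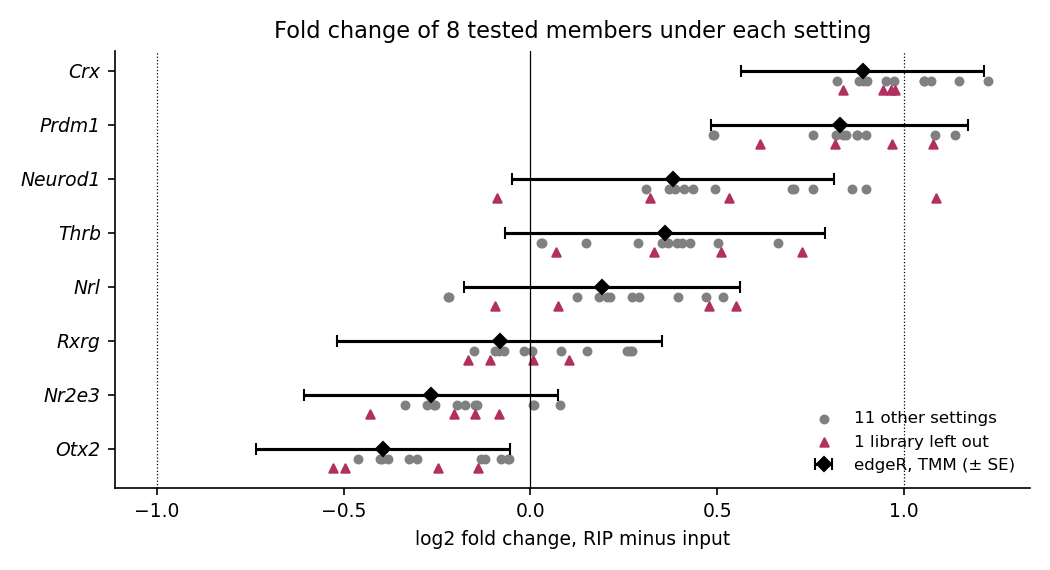
Log2 fold change, RIP minus input, of the 8 tested members by edgeR (diamonds, bars are SE), under 11 other settings (grey) and with 1 library left out (triangles). Dotted lines mark -1 and 1. Crx and Prdm1 lie above 0 and Otx2 below 0 in every setting shown, and Neurod1 spans -0.09 to 1.09 with 1 library left out.

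None of the closest relatives that could be tested passed the adjusted threshold. Neurod4, a paralog of Neurod1 found in differentiating photoreceptors and bipolar cells, had 332 and 1570 counts in the inputs against 1080 and 849 in the RIP, and like Neurod1 it was lowest in input replicate 1. Its log2 fold change was 0.49 ± 0.61 (SE, adjusted p = 0.638). Among receptor genes related to Thrb and Rxrg, the log2 fold change was 0.19 ± 0.36 (SE) for Thra, 0.80 ± 0.37 (SE) for Rxra and 0.70 ± 0.40 (SE) for Rxrb, with adjusted p values of 0.769, 0.187 and 0.274. It was -0.36 ± 0.33 (SE) for Nr2e1, a relative of Nr2e3 found in progenitors (adjusted p = 0.507), and -0.91 ± 0.48 (SE) for Maf, a relative of Nrl (adjusted p = 0.245). Neurod2 was low, with 55 and 19 counts in the inputs against 0 and 10 in the RIP (log2 fold change -2.40 ± 1.17, SE, adjusted p = 0.21). Hpcal1, a calcium sensor related to recoverin, was at -0.53 ± 0.54 (SE, adjusted p = 0.56). Otx1 had 13 and 3 counts in the inputs against 5 and 0 in the RIP and was not tested.

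Over the 4 libraries, the genes whose centred log2 CPM profile lay nearest to that of Otx2 among 5016 genes compared were Srpk1, Ick and Arpc1a, at Euclidean distances of 0.094, 0.098 and 0.107. Those nearest to Crx were Tle4, Ubr2 and Hs2st1, at distances of 0.033, 0.041 and 0.073. None of them was a member or a gene of the lists described next.

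Genes that photoreceptors switch on under these factors were described by lists. In these, rose and fell mean called higher or lower in the RIP than in the input after scaling. Among all tested genes 3.48% were called higher and 9.78% lower. Printed counts are not scaled for depth, and the list values keep the length trend described for Crx, which was not taken out. Of 12 cone phototransduction genes 9 were tested, and 1 fell and 0 rose at the adjusted threshold, with a median log2 fold change of -0.12 against -0.05 for all tested genes. The gene that fell was Gngt2, the gamma subunit of cone transducin, with 2078 and 1348 counts in the inputs against 175 and 230 in the RIP (log2 fold change -2.62 ± 0.40, SE, adjusted p = 0.00495). Opn1sw, the short-wavelength cone opsin, had 386 and 239 counts in the inputs against 98 and 129 in the RIP and did not pass after adjustment (adjusted p = 0.14). Opn1mw and Arr3, which mark later cones, had no count in any library. Of the 9 tested genes 4 had a log2 fold change above 0, the highest being 1.63 for Cnga3, a subunit of the cone channel (adjusted p = 0.198). Opn1sw, Opn1mw, Arr3 and Cnga3 were named after their values were seen.

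Among rod phototransduction genes 11 of 16 were tested, and 1 fell and 0 rose, with a median of 0.02. Pdc, which encodes phosducin, a protein that binds transducin subunits, fell from 826 and 1012 counts to 224 and 150 (log2 fold change -1.84 ± 0.36, SE, adjusted p = 0.014).

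Outer segment and visual cycle genes had the highest median of the photoreceptor lists, at 0.81 over 15 tested genes, but only 1 rose and 1 fell. The list was split, with 8 genes on the positive side and the rest on the negative side. The median was the lowest of the positive values, so it does not show a shift shared by the list. Rbp3, the retinoid-binding protein of the space around photoreceptors and a target of CRX, rose from 1687 and 1122 counts to 2605 and 2505 (log2 fold change 1.32 ± 0.36, SE, adjusted p = 0.0474). Tulp1, which acts in protein transport to the outer segment, fell from 502 and 250 counts to 97 and 80 (-1.64 ± 0.44, SE, adjusted p = 0.0425). Of 20 further photoreceptor gene regulators tested, 0 passed in either direction at the adjusted threshold by edgeR, and their median was -0.26.

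**Figure D5:**
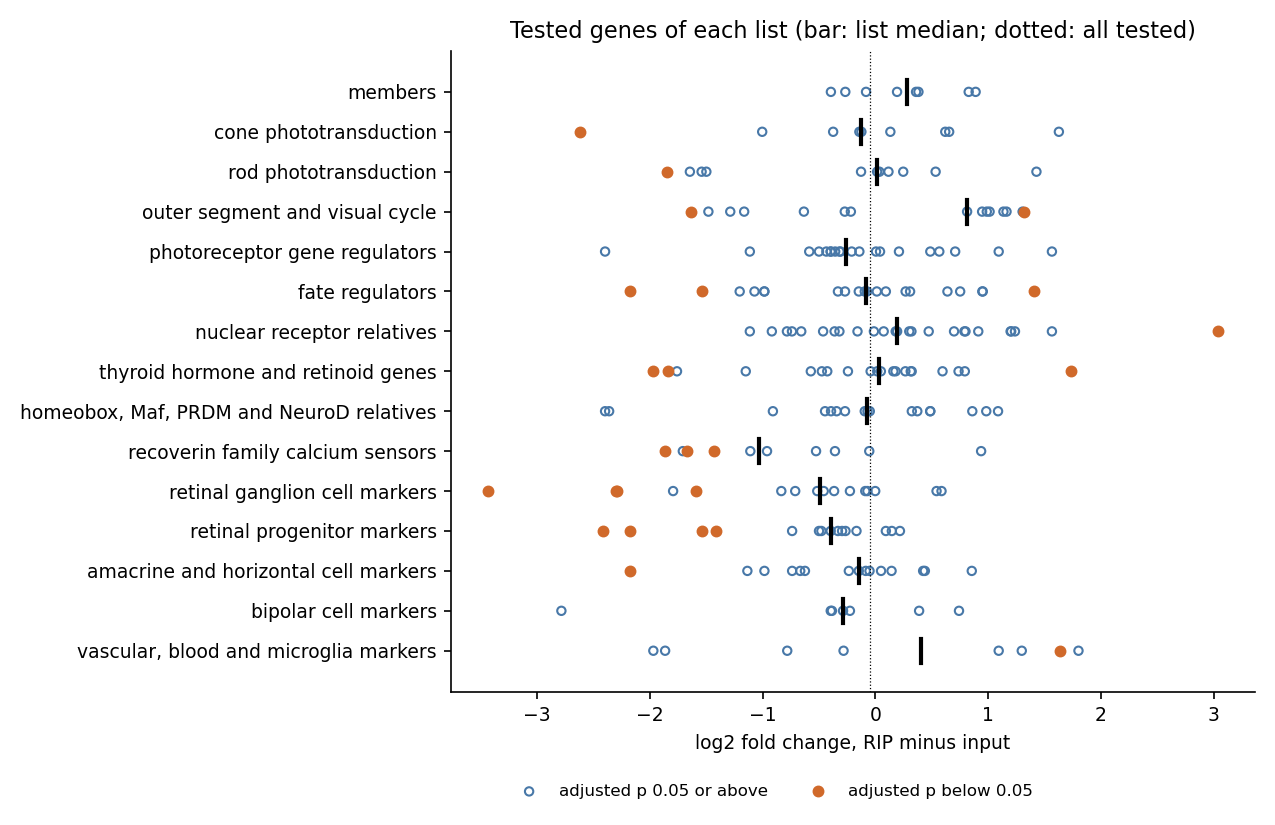
Log2 fold change, RIP minus input, of each tested gene in the lists (circles, filled where the adjusted p was below 0.05), with list medians as bars and the median of all tested genes dotted. Members lie between -0.39 and 0.89 and none is filled, and outer segment genes spread from -1.64 to 1.32.

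Of 20 tested genes that act before or against the precursor fate, 1 rose and 2 fell, with a median of -0.08, which is near the 3.48% called higher and 9.78% called lower among all tested genes. Dll4, a Notch ligand, rose from 165 and 121 counts to 295 and 259 (log2 fold change 1.41 ± 0.36, SE, adjusted p = 0.0383). Hes1, the Notch effector that keeps progenitors undifferentiated, fell from 852 and 549 counts to 201 and 152 (-1.54 ± 0.38, SE, adjusted p = 0.0322). The other gene that fell was Onecut1, a factor of horizontal and ganglion cells, at a low level of 6.80 CPM in the inputs and 1.51 CPM in the RIP (adjusted p = 0.0374), and it was named after its values were seen.

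For thyroid hormone and retinoid signalling, which works through THRB and RXRG, 20 genes were tested, of which 1 rose and 2 fell, with a median of 0.03. Tbl1xr1, a subunit of the corepressor complex of nuclear receptors, rose from 117 and 243 counts to 520 and 352 (log2 fold change 1.73 ± 0.43, SE, adjusted p = 0.0336). Gps2, another subunit of that complex, fell (-1.97 ± 0.41, SE, adjusted p = 0.0166), as did Crabp1, a cytoplasmic retinoic acid binding protein (-1.84 ± 0.42, SE, adjusted p = 0.0252). Of 25 nuclear receptor relatives tested, 1 rose, the little expressed Nr2f6 with 11 and 3 counts in the inputs against 48 and 38 in the RIP (adjusted p = 0.031), which was named after its values were seen. Of 17 homeobox, Maf, PRDM and NeuroD relatives, 0 passed by edgeR.

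Of 10 calcium sensors related to recoverin that were tested, 3 fell and 0 rose, with a median of -1.03, against 9.78% of all tested genes called lower. Calm2 and Calm3, which encode calmodulin, fell by 1.67 ± 0.34 (SE, adjusted p = 0.0158) and by 1.43 ± 0.40 (SE, adjusted p = 0.0484) on the log2 scale. The third was Kcnip1 (adjusted p = 0.0399), named after its values were seen. Calmodulin genes share near-identical coding sequence, so reads may have been split between them.

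Markers of the other cells of the retina were described in the same way, against 3.48% called higher and 9.78% called lower among all tested genes. The median log2 fold change was -0.49 for ganglion cell, -0.40 for progenitor and -0.15 for amacrine and horizontal cell markers. It was -0.29 for bipolar and 0.41 for vascular, blood and microglia markers, against -0.05 for all tested genes. Of 16 ganglion cell markers tested 4 fell and 0 rose, namely Sncg (log2 fold change -3.43), Nefm (-2.30), Gap43 (-2.29) and Stmn2 (-1.59), and their list had a summed level of 121 to 122 CPM in the inputs and 54.2 to 55.7 CPM in the RIP. Of 15 progenitor markers 4 fell and 0 rose, namely Mki67 (-2.41), Six3 (-2.18), Hes1 (-1.54) and Sox2 (-1.41), with summed levels of 888 to 1177 CPM in the inputs and 740 to 761 CPM in the RIP. Mki67, a proliferation marker, had 453 and 2388 counts in the inputs. Stmn2 and Sox2 were named after their values were seen.

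Amacrine and horizontal cell markers had 15 genes tested, of which 1 fell (Onecut1) and 0 rose, with 208 to 269 CPM in the inputs and 157 to 168 CPM in the RIP. Bipolar markers, the fate that PRDM1 holds back, were low at this age, with 13.0 to 16.8 CPM in the inputs and 13.9 to 16.4 CPM in the RIP, 4 of 12 with no count, among them Grm6 and Vsx1, and 0 of 7 tested past the threshold by edgeR. Of 13 lens markers 9 had no count. Of 8 vascular, blood and microglia markers tested 1 rose, Pdgfrb (adjusted p = 0.0376, named after its values were seen), and their summed level was 35.9 to 38.9 CPM in the inputs and 72.1 to 76.1 CPM in the RIP, mostly from Kdr, which had 997 and 1037 counts in the inputs and is also expressed in retinal progenitors. The members together held 144 and 164 CPM in the inputs and 195 and 201 CPM in the RIP. The part of these other cells in the members' values was not tested.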

How the data were processed

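The deposited tables hold counts per gene (whole numbers, not normalized) and FPKM, scaled by the authors for the length of a gene and the size of the library. The submitters' processing notes name STAR 2.5, HTSeq and GRCm38, and their settings are not given in the sources used here. Every per-sample column was used (0 left out). Columns were matched to samples by name and groups came from the labels. The library kit is stranded, and whether counting used strand is not given in the sources used here.

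The count model was fitted with edgeR 4.0.16 under R 4.3.3 (filterByExpr with a minimum count of 10 and a minimum total of 15, TMM, glmQLFit and glmQLFTest, Benjamini-Hochberg adjustment over 13632 tested genes). CPM are counts divided by TMM-scaled library sizes. The SE of a log2 fold change is its size over the square root of F. An adjusted p below 0.05 made a call. The study describes its RIP replicates as biological. The labels do not say whether they came from separate animals, so p-values measure the spread between these libraries, part of which may be technical. Replicates differed by more than counting noise, their chi-square divided by its degrees of freedom being 167 for the inputs and 22.6 for the RIP libraries.

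The design text gives each replicate an input and a RIP library, so equal numbers pair the samples. The replicate differences of inputs and RIP libraries had a Spearman correlation of -0.03 and a Pearson r of -0.03 across tested genes. The replicate block was an alternative, as were DESeq2 1.42.0, limma 3.58.1 on log2 of FPKM plus 0.1 or plus 1 for a mean FPKM of at least 0.1, other scalings and filters, offsets for length and GC trends (mgcv 1.9.3, basis size 8) and each library left out. Positions, gene types and transcripts were taken from the GENCODE M21 annotation of GRCm38, where 52403 identifiers matched. GGACT was searched in the mRNA strand. Scripts were tested on simulated data.

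Named genes are all members, up to 3 genes a direction per list with an adjusted p below 0.05 and a mean of at least 5 CPM, 9 paralogs, Ythdf2 and the nearest profiles of Otx2 and Crx. The members and lists were chosen with earlier results of these data known. A gene of the rod list is counted in its summary and is not reported here by itself.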

Additional observations from a re-analysis of the deposited data

How the results depend on the processing

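Of 120 recomputed log2 fold changes of single members, 15 changed sign. In the 11 other settings that kept all 4 libraries, only Crx newly passed the adjusted threshold, in 2 of them. The count of members higher at the adjusted threshold, 0 as reported, was 1 (Crx) with length and GC offsets and 1 with the replicate block and these offsets together, and 0 to 3 with 1 library left out. The count higher within the fold limits, also 0, was 2 with library size alone, 1 with the offsets and 1 with the offsets and the replicate block. It was 2 on log2(FPKM + 0.1) and 1 on log2(FPKM + 1). Counts of lower members were 0 in every setting that kept all 4 libraries. With the replicate block alone, the paired analysis gave 0 members higher and 0 lower and Crx a log2 fold change of 0.89 (adjusted p = 0.243). It changed no member's call, and no member then had an unadjusted p below 0.05.

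Sign changes came at small values. Nrl was -0.22 with the offsets, -0.22 with the offsets and block, and ranged from -0.10 to 0.55 with 1 library left out. Nr2e3 was 0.0804 with library size alone, 0.0082 on log2(FPKM + 0.1) and 0.0093 on log2(FPKM + 1). Rxrg was 0.27 with library size alone, 0.0045 with no filter, 0.26 with the offsets, 0.27 with the offsets and block, 0.15 on log2(FPKM + 0.1), 0.0817 on log2(FPKM + 1), and from -0.17 to 0.10 with 1 library left out. Neurod1 ranged from -0.0893 to 1.09 with 1 library left out. Leaving out a library leaves a lone library in a group, which is assumed to vary like the other group.

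The number of neighbouring members apart in the inputs was 5 as FPKM and TPM and 4 as counts per kilobase. GGACT was in 8 members with the longest annotated transcript and, chosen after seeing the data, with the longest coding one, and in 6 with the shortest coding one. Depth limits Rcvrn, Thrb and Rxrg, whose counts are low.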
